A study of Mus musculus with 6 samples.

Results

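IFNγ raised the signal of Cd274, the gene of the checkpoint ligand PD-L1, 9.73-fold in TC-1/A9 tumour cells and that of Insl6, a nearby gene of the relaxin family, 3.37-fold. None of the other 10 measured genes of their neighbourhood on chromosome 19 passed the test, where 1.33% of all tested genes were higher. Other genes of that stretch, Pdcd1lg2 next to Cd274 among them, had no value. The genes described here are Cd274 and 7 genes listed with it for their place near it on mouse chromosome 19: Pdcd1lg2, Insl6, Rcl1, Ak3, Ermp1, Ranbp6 and Cdc37l1. They were found by the gene symbol that the array platform gives to each probe. Of the 8 genes, 6 had a probe named here, with 10 probes in all, and these are 6 of the 7807 named genes tested. Gene names were at hand only for probes of the deposited value table, which holds 12421 of the 45281 on the array. Pdcd1lg2 and Ranbp6 had no probe named here and therefore no value. A gene with no probe named here may still have one on the array. Cd274 and Insl6 were chosen by their higher signal with IFNγ in these same arrays, so their levels and changes are given as a description, with no p-value, and the other genes were selected on position with results of these data known.

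PD-L1 and PD-L2, the products of Cd274 and Pdcd1lg2, are the ligands of the inhibitory receptor PD-1 on T cells. Tumour cells that carry PD-L1 can hold back T cells that recognise them. IFNγ signals through its receptor and the kinases JAK1 and JAK2 bound to it. Among the genes it induces is the transcription factor IRF1, known to act on the promoter of CD274 in human cells. Jak2 itself lies between Rcl1 and Insl6 in the annotated gene order.

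TC-1/A9 is a single MHC class I-deficient mouse cell line, grown from tumours that TC-1 cells formed in immunized mice. TC-1 cells are C57BL/6 mouse lung cells that carry the E6 and E7 oncogenes of human papillomavirus and activated Ha-ras, which both groups therefore share. The untreated group comprised 3 arrays of cells in medium without the cytokine, and the IFNγ group 3 arrays of cells kept for 24 h in medium with IFNγ, which followed 24 h in fresh medium. The labels give a dose of 50 U/ml, whereas the methods of the study give a higher dose for the arrays. The arrays were described as biological triplicates of cells grown in culture. RNA was read on bead arrays (Illumina Mouse WG6). Each probe gave an intensity and a detection p-value against the negative controls of its array, and a probe is called detected here at a detection p of 0.01 or less.

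The median intensity of an array lay between 48.7 and 55.4, and 11504 to 12423 probes per array were detected. Arrays of the untreated group correlated with each other at r of 0.993 to 0.996 over the tested probes, and IFNγ replicates 1 and 2 at 0.995. IFNγ replicate 3 stood apart from these at 0.986 and 0.984, so printed changes of a gene's brightest probe that moved by over 1.5 times without it are also given without it. Of the 13545 probes tested with limma at an FDR below 0.01, 141 (1.04%) were higher and 2 (0.0148%) lower with IFNγ. These fell in 104 of 7807 named genes higher (1.33%) and 2 lower (0.0256%). On chromosome 19, 5 of 286 genes were higher (1.75%), namely Cd274, Insl6, Fas, Batf2 and Ifit3. That share includes Cd274 and Insl6, which were chosen for their rise. Of 6 mesenchymal markers 3 had a probe named here, Vim, Fn1 and S100a4, which were detected on all 6 arrays and not called. Of 8 leukocyte markers 1 had a probe named here, Csf1r, which was detected on 2 arrays, and of 3 endothelial markers 1, Kdr, detected on 3 arrays. None of 6 epithelial markers had a probe named here, so an epithelial origin of the line was not checked. That absence does not tell whether these markers were expressed.

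The 250 bases upstream of 3 of these genes are shown because Cd274 rose and the other genes did not pass the test, although one of them holds the same short motif. Sequences and positions are those of RefSeq on GRCm38.p6, written 5′ to 3′ on the strand of the gene, and capitals mark a match to the core of an IRF element, AANNGAAA or its reverse complement TTTCNNTT. Cd274 lies on the + strand (chr19:29367188-29367437), Ak3 on the - strand (chr19:29047962-29048211) and Rcl1 on the + strand (chr19:29101125-29101374).
Cd274: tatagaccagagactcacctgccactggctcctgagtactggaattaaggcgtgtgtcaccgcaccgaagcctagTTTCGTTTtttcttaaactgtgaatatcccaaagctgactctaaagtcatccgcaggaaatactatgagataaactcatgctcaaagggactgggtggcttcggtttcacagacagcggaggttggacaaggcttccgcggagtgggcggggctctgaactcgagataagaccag
Ak3: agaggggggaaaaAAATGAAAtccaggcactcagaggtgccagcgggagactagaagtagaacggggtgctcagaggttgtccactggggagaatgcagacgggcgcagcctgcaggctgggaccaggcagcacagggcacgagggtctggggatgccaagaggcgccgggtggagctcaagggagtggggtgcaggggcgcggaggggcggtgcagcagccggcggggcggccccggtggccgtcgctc
Rcl1: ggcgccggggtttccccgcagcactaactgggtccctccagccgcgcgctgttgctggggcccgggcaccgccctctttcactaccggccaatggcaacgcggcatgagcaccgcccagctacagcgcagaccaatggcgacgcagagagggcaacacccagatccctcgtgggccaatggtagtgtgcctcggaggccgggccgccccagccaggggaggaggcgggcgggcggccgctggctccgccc

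In Cd274 the match, TTTCGTTT, lay on the - strand from 175 to 168 bases before the start of the gene. Ak3 held AAATGAAA from 237 to 230 bases before its start, and Rcl1 held no match in this stretch. This short core was common, with a match on either strand in 6999 of 32851 mouse promoters of the same length (21.3%). The pattern of the gamma-activated site (GAS), TTCNNNGAA, which reads the same on both strands, was found in 2306 of them (7.02%). The 2 patterns were searched separately, and a base may belong to a match of each. Among Cd274 and the 15 protein-coding genes on each side of it, 28 of 31 genes had a promoter entry, with 33 entries in all. Insl6 had no entry, so its upstream bases were not searched for either pattern. The IRF core was found in 9 of the genes with an entry, which were Cdc37l1, Ak3, Cd274, Pdcd1lg2, Ermp1, Il33, Trpd52l3, Cstf2t and A1cf. The GAS pattern was found in 1, Pum3. The core was thus also present upstream of Ak3, Ermp1 and Cdc37l1, none of which was called. A match is a run of letters in this window, and binding of a factor was not measured.

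Cd274 was close to the background of the arrays without IFNγ. Its log2 signal, after quantile normalization, was 6.22, 5.98 and 6.17 in untreated replicates 1, 2 and 3. With IFNγ it was 9.25, 9.53 and 9.44. The lowest IFNγ array thus stood 3.03 above the highest untreated array. The detection p was 0.00214, 0.0374 and 0.00962 in the untreated replicates, so that the transcript was detected on 2 of 3 untreated arrays, and 0 on all 3 IFNγ arrays. In the intensities as deposited the same step ran from 86.6, 63.5 and 66.7 to 705, 615 and 620. The mean log2 signal rose from 6.13 ± 0.12 to 9.41 ± 0.14 (SD, n = 3 each), a log2 change of 3.28 (standard error 0.12, 95% interval 3.03 to 3.53), or 9.73-fold (8.18 to 11.6). This was the 6th highest change of the 7807 genes.

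The mean untreated level of Cd274 lay within the lowest log2 signals of any detected probe on these arrays, which ran from 6.07 to 6.18. After neqc, a correction that estimates the background from the detection p-values, its change became 4.18 on the log2 scale. Without IFNγ replicate 3 it was 3.29. In these bulk samples, fewer cells with the transcript and less transcript per cell cannot be told apart.

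Insl6, an insulin-like peptide of the relaxin family that is known from the testis of the mouse, was detected on all 6 arrays. Its log2 signal was 7.04, 6.92 and 7.08 in the untreated replicates and 9.02, 8.82 and 8.46 with IFNγ. The groups did not overlap, and IFNγ replicate 3 was the lowest of its group. The deposited intensities were 166, 117 and 119 in untreated cells and 604, 378 and 321 with IFNγ. The mean rose from 7.01 ± 0.08 to 8.76 ± 0.29 (SD, n = 3 each), a log2 change of 1.75 (standard error 0.14, 95% interval 1.46 to 2.05), or 3.37-fold (2.75 to 4.14), the 20th highest of the 7807 genes. Without IFNγ replicate 3 the change was 1.93. Over all tested probes, every IFNγ array lay above every untreated array in 856 of 13545 (6.32%), a share set beside the non-overlap of Cd274 and Insl6 as background only, since both were chosen for their rise.

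**Figure D1:**
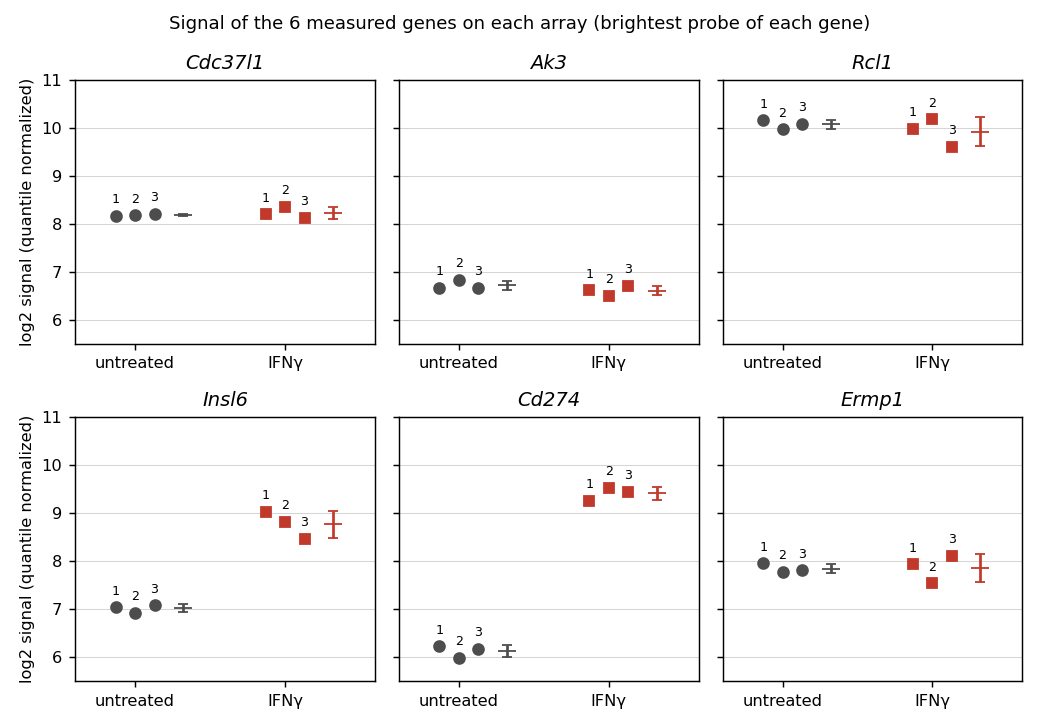
Quantile-normalized log2 signal of the 6 measured genes on each array (vertical axis), with untreated replicates as circles, IFNγ replicates as squares, the replicate number above each point, and the mean and SD (n = 3) beside each group. Cd274 and Insl6 stand apart between the groups, whereas the points of Cdc37l1, Ak3, Rcl1 and Ermp1 overlap.

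The question that the arrangement of these genes poses is whether the rise was shared along the chromosome. The other 4 measured genes of the list, Cdc37l1, Ak3, Rcl1 and Ermp1, have 8 probes. All 8 were detected on all 6 arrays, on all 8 the groups overlapped, and none was called in limma's fit over the 13545 probes, against 1.04% of all probes called higher. The lowest adjusted p among them was 0.808, and 0 of the 8 had an unadjusted p below 0.05, the lowest being 0.304. The share of all tested probes below 0.05 unadjusted is not given here.

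Rcl1, which takes part in the processing of ribosomal RNA, had 3 probes. The brightest read 10.15, 9.97 and 10.08 on the log2 scale in untreated cells and 9.98, 10.18 and 9.60 with IFNγ. IFNγ replicate 2 was the highest of the 6 arrays and IFNγ replicate 3 the lowest. The log2 change was -0.15 (95% interval -0.45 to 0.15, adjusted p = 0.808 from limma), and 0.01 without IFNγ replicate 3. The other probes gave -0.07 (-0.32 to 0.19, adjusted p = 0.911) and 0.05 (-0.20 to 0.30, adjusted p = 0.932).

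Ak3, the adenylate kinase of the mitochondrial matrix that uses GTP, had 2 probes. The brighter gave log2 signals of 6.66, 6.83 and 6.67 without and 6.61, 6.50 and 6.70 with IFNγ. These differed by -0.12 (95% interval -0.35 to 0.12, adjusted p = 0.811), with IFNγ replicate 3 above 2 of the untreated arrays. The dimmer probe differed by 0.09 (-0.17 to 0.35, adjusted p = 0.881), the opposite sign.

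Cdc37l1, a co-chaperone of Hsp90, read 8.17, 8.17 and 8.20 in untreated cells and 8.19, 8.36 and 8.12 with IFNγ on its brighter probe. IFNγ arrays gave both the highest and the lowest of these signals. The log2 change was 0.04 (95% interval -0.19 to 0.27, adjusted p = 0.939), or 0.09 without IFNγ replicate 3, and that of the other probe was -0.05 (-0.30 to 0.19, adjusted p = 0.924). Ermp1, a metallopeptidase of the endoplasmic reticulum and the only one of these genes to follow Cd274 in the annotated order, read 7.96, 7.77 and 7.80 without and 7.93, 7.53 and 8.11 with IFNγ on its 1 probe. The IFNγ arrays again spanned the untreated ones, and the log2 change was 0.01 (95% interval -0.29 to 0.31, adjusted p = 0.989), or -0.11 without IFNγ replicate 3.

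The upper end of each 95% interval describes how large a rise in signal these arrays could have missed. The intervals are for single probes and are not adjusted for the number of genes. They rest on signals with no background correction made here. After neqc the change of Ak3 was -0.17 in place of -0.12. For the brightest probes of these 4 genes the highest upper end was 0.31 on the log2 scale, or 1.24-fold. The dimmer probe of Ak3 had a higher upper end, 0.35. The changes of the 4 genes ran from -0.15 to 0.04, within the range from -0.26 to 0.26 that held the 5th to the 95th percentile of all tested probes, whose median was -0.01. A small rise of these neighbours, below those upper ends, is not excluded by 3 arrays per group.

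The listed genes leave out others of the same stretch, so the 15 protein-coding genes on each side of Cd274 in the RefSeq order were read from the same fit. Of the 23 of these that were not on the list, 6 had a tested probe, and 17 had no probe named here. None of the 6, which were Vldlr, Pum3, Plpp6, Jak2, Plgrkt and Uhrf2, was called higher or lower, where 1.33% of all tested genes were higher. Of their 14 probes 1, that of Plgrkt, had an unadjusted limma p below 0.05. The share of all tested probes below that unadjusted threshold is not given here, so this count has no background beside it.

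The nearest measured gene to Cd274 was Plgrkt, a plasminogen receptor at the cell surface, which lies between Insl6 and Cd274. Its log2 signal was 9.59, 9.61 and 9.59 in untreated cells and 9.88, 10.03 and 9.64 with IFNγ. All 3 IFNγ arrays lay above the untreated ones, as in 6.32% of all tested probes, and IFNγ replicate 3 only by a little. The log2 change was 0.26 (95% interval 0.00 to 0.51, adjusted p = 0.638), and the lower end of that interval, 0.0016, was just above 0. Without IFNγ replicate 3 it was 0.36.

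Jak2, the kinase at the IFNγ receptor, lies on the other side of Insl6. Its brighter probe gave 8.08, 8.06 and 8.21 without and 8.18, 8.17 and 8.58 with IFNγ, a log2 change of 0.20 (95% interval -0.08 to 0.47, adjusted p = 0.733). IFNγ replicate 3 was the highest array, and without it the change was 0.06. The dimmer probe changed by 0.23 (-0.06 to 0.53, adjusted p = 0.704). Uhrf2, a ubiquitin ligase that binds modified cytosine in DNA, changed by 0.15 on its brightest probe (-0.09 to 0.39, adjusted p = 0.763), or by 0.08 without IFNγ replicate 3. The whole stretch held 10 measured genes other than Cd274 and Insl6, listed or not. Their changes on the brightest probe ran from -0.15 to 0.26 with a median of 0.01. The highest upper end of an interval of these brightest probes was 0.51, or 1.42-fold.

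**Figure D2:**
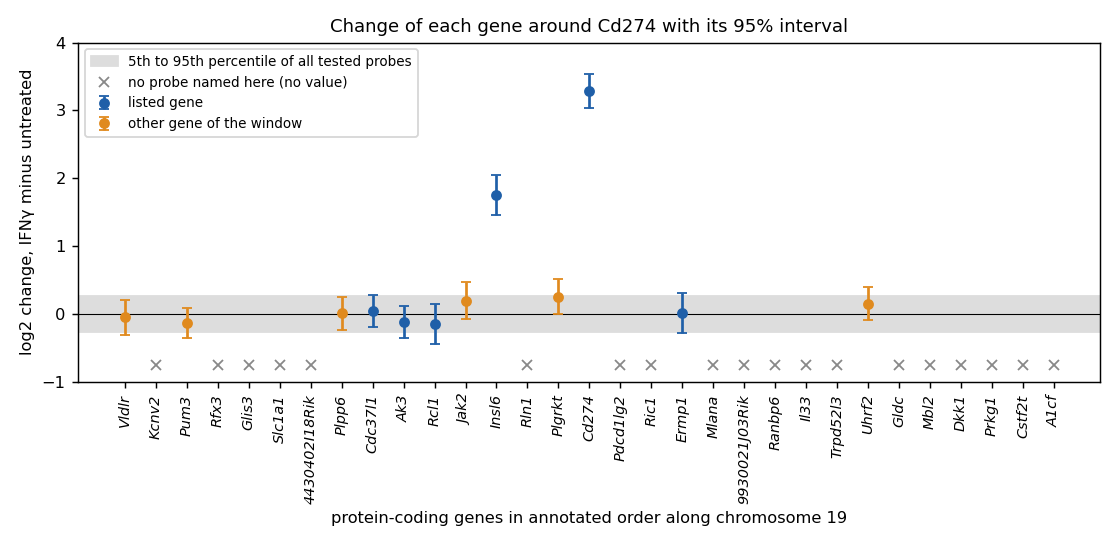
Log2 change, IFNγ minus untreated, of the brightest probe of each gene (vertical axis, bars are 95% intervals) for Cd274 and the 15 protein-coding genes on each side in annotated order (horizontal axis, not to scale), with crosses for genes that had no probe named here and a grey band for the 5th to 95th percentile of all tested probes. Cd274 at 3.28 and Insl6 at 1.75 lie above the band, the other 10 measured genes at -0.15 to 0.26 lie within it, and Jak2 and Plgrkt, on either side of Insl6, were not called.

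Cd274 was also set beside other ligands of lymphocyte inhibitory and co-stimulatory receptors. Of 28 such genes 12 were measured, and 3 were higher with IFNγ, one of which is Cd274 itself, and 9 not called, where 1.33% of all tested genes were higher, with a median log2 change of 0.06 beside -0.02 over all tested genes. Besides Cd274, H2-T23, whose product Qa-1 is a ligand of NKG2A, rose by 1.53 on the log2 scale (95% interval 1.28 to 1.77, adjusted p = 1.73e-06), from 6.79 ± 0.17 to 8.31 ± 0.04 (SD, n = 3 each). Clec2d, a ligand of NK cell receptors of the NKR-P1 family, rose by 1.08 (0.81 to 1.35, adjusted p = 1.72e-04). Under centring of each array on its 75th percentile Clec2d missed the threshold, with an adjusted p of 0.0105, and over its 16 alternatives the adjusted p ran from 9.63e-10 to 0.0105. Of the genes that were not called, Cd47, the ligand of SIRPα on phagocytes, changed by 0.55 (0.25 to 0.86, adjusted p = 0.0995), Nectin3 by -0.23, Lgals3 by 0.07 and Pvr by 0.05. Lgals3 changed by 0.16 and Pvr by 0.0974 without IFNγ replicate 3, and Nectin3 by -0.0891 without untreated replicate 1.

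Of 24 genes known to carry the IFNγ signal towards Cd274 or to act on its mRNA or protein, 20 were measured. The transcription factors Irf1 and Irf9, the feedback inhibitor Socs3 and Stat3 were higher and the other 16 not called, where 1.33% of all tested genes were higher, and the median log2 change was 0.10 beside -0.02 over all tested genes. Irf1 changed by 2.80 (95% interval 2.53 to 3.08, adjusted p = 6.44e-09), Irf9 by 2.40 (2.16 to 2.64, adjusted p = 7.95e-09) and Socs3 by 1.55 (1.32 to 1.79, adjusted p = 1.02e-06). Stat3 changed by 1.05 with an adjusted p of 0.00948, next to the threshold, and it was not called in 11 of 16 alternatives, over which the adjusted p ran from 1.83e-10 to 0.116. Without IFNγ replicate 3 its adjusted p was 3.09e-07. Among those not called, Irf2 changed by 0.49 (adjusted p = 0.0431), and it passed the threshold with array weights (0.00468), with adjusted p-values from 0.00468 to 0.657 over its 16 alternatives. Of genes that act on the protein, 2 bright ones were not called: Cmtm4, which with Cmtm6 keeps PD-L1 from breakdown in human cells, changed by -0.34 (-0.68 to -0.0027, adjusted p = 0.638) and by -0.15 without IFNγ replicate 3, and Spop, a ubiquitin ligase adaptor for PD-L1, by 0.08. Rela, a subunit of NF-κB, changed by -0.07. Without IFNγ replicate 3 the change was 0.135 for Spop and -0.10 for Rela. Of 13 genes of the relaxin and insulin-like family and its receptors, 2 were measured, Insl6 and Igf1, and Igf1 changed by -0.10 (adjusted p = 0.847), or -0.0566 without IFNγ replicate 3, so Insl6 could be set beside no other relaxin peptide.

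Across the 6 arrays, the genes whose profiles were most like that of Cd274 were sought by the root mean square difference of log2 signals centred on the untreated mean. The nearest were Gbp3, a guanylate-binding protein (difference 0.19), AA467197 (0.29), Parp14, an ADP-ribosyltransferase (0.34), Irf1 (0.35) and Nlrc5, the transactivator of MHC class I genes (0.47). Those nearest to Insl6 were the immunoproteasome subunit Psmb9 (0.18), Ifi35 (0.19), the peptide editor Tapbpl (0.20), the ubiquitin ligase Trim21 (0.20) and Ifi47, an immunity-related GTPase (0.26). The measure is a description over 6 arrays that all these genes share, and it follows mainly the size of the step with IFNγ. Gbp3, Parp14, Nlrc5, Psmb9, Tapbpl, Trim21 and Ifi47 were detected on no untreated array, so their centred values have only a bound. Set against the lowest signal of a detected probe, Gbp3 was at least 7.83-fold and Psmb9 at least 2.39-fold higher with IFNγ.

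**Figure D3:**
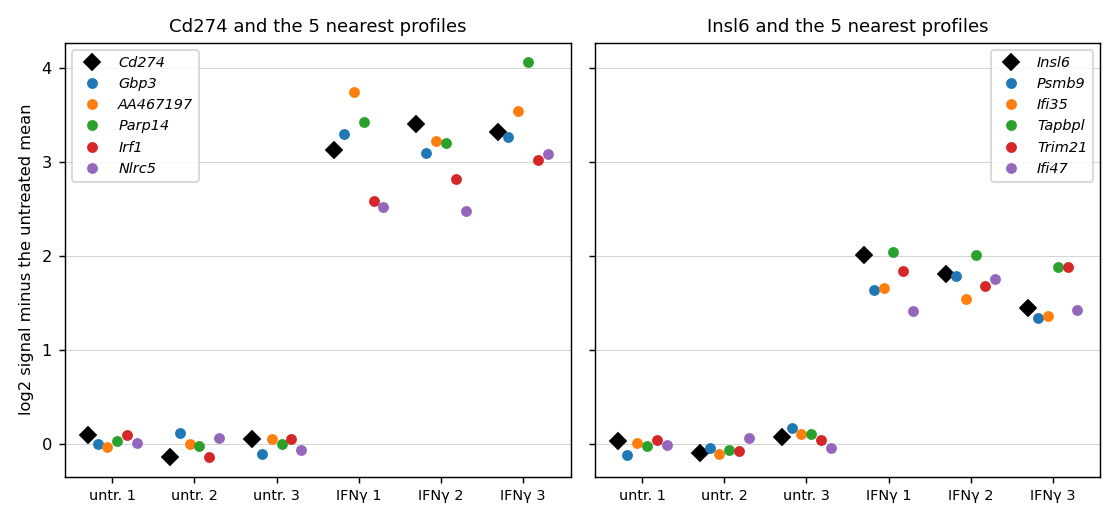
Log2 signal minus the untreated mean (vertical axis) on each of the 6 arrays (horizontal axis, points offset within an array) for Cd274 and Insl6 (diamonds) and the 5 genes with the nearest profile to each (circles). The step with IFNγ was 3.28 for Cd274 and 1.75 for Insl6, and its nearest profiles differed from Cd274 by 0.19 to 0.47 and from Insl6 by 0.18 to 0.26.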

How the data were processed

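RNA of untreated and of IFNγ-treated TC-1/A9 cells was compared on 3 Illumina Mouse WG6 arrays each. The authors exported with BeadStudio an intensity per probe and array on a linear scale, before any normalization. The deposited table also holds a detection p-value for each intensity. Detection columns that share a header were checked against the array they stand beside. How the export treated background is not stated in the sources used. A log2 value table was deposited too, quantile normalized with lumi, which differed by at most 4.97e-14 from log2 values made here from the intensities. It holds 12421 probes, and its platform annotation gave the gene names, where 9809 symbols were matched through Entrez IDs, 729 through accessions, 389 through synonyms and 253 left as they were.

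Log2 intensities were quantile normalized over 45281 probes, probes not detected at 0.01 on any of the 6 arrays were dropped, and 13545 were tested with limma 3.58.1 (lmFit and eBayes, R 4.3.3) with Benjamini-Hochberg adjustment and an FDR below 0.01. The fit was tested on simulated data, but no outcome of that is given here and no result rests on it. A gene was represented by its brightest tested probe and called if any of its probes was called. A bound against genes not detected in a group uses, per array, the higher of the lowest detected signal and the probe's own. Precision is limited by 3 arrays per group, and the p-values set a change against the spread between these replicate arrays of a single cell line. Columns of other samples in the table numbered 0.

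The members, the lists and the tests were chosen with earlier results of these data known. Named genes were every member, genes of the stretch that were called or among the 3 nearest measured on each side, called genes of the lists with up to 4 of the brightest uncalled, and the 5 nearest profiles. Fas, Batf2 and Ifit3 were named after their values were seen. Alternatives were neqc, normexp, centring on the 75th percentile, cyclic loess, the value table, other detection filters, a trended and robust eBayes, array weights, a replicate block, each array left out, an FDR below 0.05 and the mean of a gene's probes.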

Additional observations from a re-analysis of the deposited data

How the results depend on the processing

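The log2 change of Cd274 ran from 3.07 (normexp) to 4.18 (neqc) over the 15 alternatives that gave it a value, and that of Insl6 from 1.61 to 2.08 over 16; both genes were chosen for their rise in these arrays, so this range describes the size and supports no call. No gene of the stretch that was not on the list was called in any alternative. Of the listed genes, Rcl1, Ak3, Ermp1 and Cdc37l1 were called in no alternative. With probes detected on all 6 arrays Cd274 dropped out, because it is not detected in untreated replicate 2. There only 1 listed gene, Insl6, was called. In the other alternatives Cd274 and Insl6 were called, which their choice by these same arrays made likely and which supports no call. Over all tested probes, 143 were called, and this became 283 with array weights, 78 with centring on the 75th percentile and 75 when detection on every array was required. It ranged from 85 to 177 with each array left out, the lowest without untreated replicate 3 and the highest without IFNγ replicate 3, with 90 without untreated replicate 1. An FDR below 0.05 gave 185. Of the named genes that were not called, Rcl1, Ermp1, Cdc37l1, Lgals3, Pvr, Spop and Rela changed sign in at least 1 alternative. Centring on the 75th percentile gave -0.023 for Ermp1, -0.0092 for Cdc37l1, -0.027 for Lgals3, -0.0147 for Pvr and -0.0092 for Spop, and the mean of its probes -0.0062 for Cdc37l1. With each array left out the log2 change ran from -0.28 to 0.0113 for Rcl1, from -0.11 to 0.18 for Ermp1, from -0.0249 to 0.0946 for Cdc37l1, from -0.0593 to 0.16 for Lgals3, from -0.0205 to 0.14 for Spop and from -0.17 to 0.0684 for Rela. The causes of these shifts were not tested. With the replicate number as a replicate block, 148 probes were called (145 higher, 3 lower). Cd274 changed by 3.28 and Insl6 by 1.75, and no other listed gene was called. The deviations of same-numbered arrays correlated at -0.19, 0.043 and -0.025, and not every array correlated best with its own number. These values gave no sign of a pairing by number, but with 3 arrays per group they cannot exclude one. The alternatives for genes other than the listed ones were added after the data were seen. Signals near background, as that of Cd274 in untreated cells, limit what these arrays can resolve.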
